A study of Rattus norvegicus with 8 samples.

Results

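Glutamate receptor subunits, their auxiliary proteins and the scaffolds of the postsynaptic density were compared between the large and the small ganglion cells of the rat retina. The genes were taken by name from a list of 44, and a gene counted as measured when at least 1 probe carried its symbol alone. Of the 44 genes, 43 were measured, by 63 probes, among 14801 named genes that could be tested, and Cnih3 had no such probe. Among the 43, 27 had 1 probe and 16 had several.

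The study set large against small ganglion cells, the neurons whose axons form the optic nerve. Per the labels and the series text, the cells of rat retinas had been labelled backwards from their axon targets with the fluorescent tracer 4DI-10ASP and sorted by flow cytometry into LRGC (large) and SRGC (small) fractions, with Actinomycin D, a blocker of transcription, present throughout. RNA of both fractions was amplified in 2 rounds and hybridised together on 2-colour Agilent rat arrays, of which 8 were analysed. They are named by the number in their titles (39, 40, 41, 42, 43, 69, 70 and 71). Both fractions thus shared the tracer, the inhibitor and the amplification, and the labels used here give neither the age and strain of the rats nor the number of animals behind an array. A ratio of pooled sorted cells cannot tell fewer cells of a type from less RNA per cell, and it gives no level of a transcript, so that no check of presence was possible.

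Ganglion cells receive their excitation from bipolar cells, which release glutamate. AMPA and kainate receptors carry the fast current, NMDA receptors carry a slower current that needs depolarisation, and metabotropic receptors signal through G proteins on both sides of the synapse. Auxiliary subunits set the gating and traffic of the channels, and a layered scaffold of DLG, SAPAP, SHANK and Homer proteins holds them at the membrane.

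The measurement was a log2 ratio of the 2 channels of an array, averaged over the probes of a gene. The 2 RNAs met on each array, so all arrays formed 1 group, and the mean ratio was tested against 0 with limma over all 14801 genes. A gene was called at a Benjamini-Hochberg adjusted p under 0.05. Values are means with the standard deviation (SD) over n = 8 arrays, and values listed by array follow the order of the array numbers. The labels do not say which channel is the numerator, so genes are placed on the negative or the positive side of 0. If the ratio ran from large (listed first, with Cy5) to small cells (listed second, with Cy3), the positive side would mean higher in large cells.

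The arrays did not all run the same way. Over all probes, arrays 39, 41, 43 and 70 (set 1) correlated with one another, as did arrays 40, 42, 69 and 71 (set 2), with Pearson's r from 0.22 to 0.68 over 12 pairs, while 15 of the 16 pairs between the sets were negative. The lowest r was -0.32, between arrays 39 and 69, and arrays 39 and 42 followed at -0.30 (with extreme values kept, the lowest was -0.29). With correlations this far below 0, and with labels that give 1 dye orientation beside a series text that speaks of a dye swap, the direction of the ratio is not settled. Results are therefore given in 2 readings: as the mean of the deposited values, and with the signs of set 2 turned, which gives the mean of set 1 minus set 2 divided by 2 and has a sign that is open as a whole. The sets were found in these data and are not groups of the study, so a call with signs turned describes how a gene follows them and is no independent test. Opposite dye orientations of the 2 sets, if left unturned before deposit, would cancel a large-against-small difference in the mean of the deposited values. A call in the deposited direction would then show only what both orientations share. Which reading holds was not tested.

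In the deposited direction the list moved little. Of the 43 genes, 2 were called with a negative mean and 0 with a positive one, against 240 (1.62%) and 84 (0.568%) of all genes tested. At an unadjusted p under 0.05 there were 5 and 2 members, against 7.88% and 5.2% of all genes. The median of the member means was -0.01, as was that of all genes tested, and 25 of the 43 means were negative, against 52% of all genes. The called members were Neto2, an auxiliary subunit of kainate receptors, and Gria3, a subunit of AMPA receptors. When arrays with neighbouring numbers were averaged, which the labels do not pair, 0 genes were called. With the signs of set 2 turned, 8 members were called negative and 4 positive, against 14.5% and 13.6% of all genes tested, and neither Neto2 nor Gria3 was among them.

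**Figure D1:**
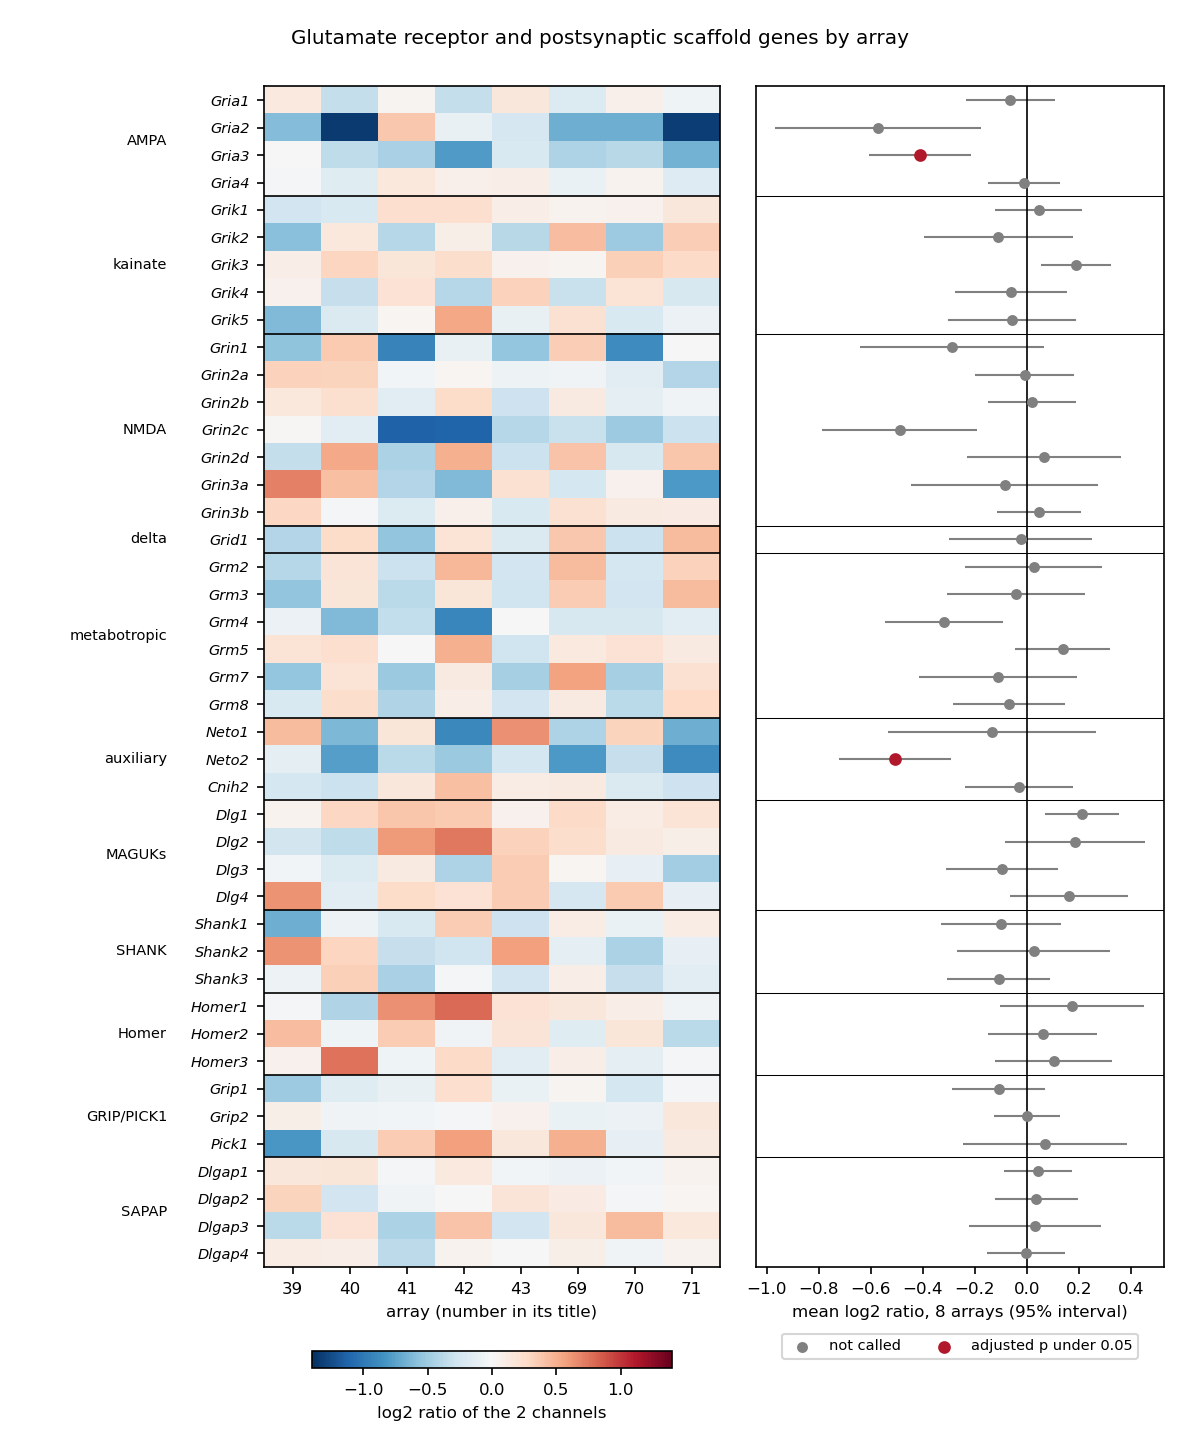
Left, log2 ratio of each of the 43 measured genes (rows, grouped by role) on each of the 8 arrays (columns), in colour from blue (negative) to red (positive). Right, mean over the 8 arrays with its 95% interval from limma, where red points mark Neto2 at -0.51 and Gria3 at -0.41, the 2 called genes.

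The AMPA receptor subunits, which form the main fast glutamate channel of ganglion cells, all had a negative mean, and 1 of the 4 was called. Gria3 read 0.0048, -0.36, -0.46, -0.79, -0.21, -0.43, -0.39 and -0.67. It was negative on 7 of 8 arrays and near 0 on array 39, with a mean of -0.41 ± 0.25 (1.33-fold, SE 0.09, limma adjusted p = 0.043). Its call was lost in 7 of the 8 fits that left out 1 array, all but that without array 39, with adjusted p up to 0.114. After turning set 2, its mean was 0.15 ± 0.48 (limma adjusted p = 0.488).

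Gria2, whose product keeps AMPA channels from passing calcium, had the lowest mean of the list without passing the test. It read -0.61, -1.34, 0.37, -0.11, -0.23, -0.68, -0.68 and -1.31, with a mean of -0.57 ± 0.58 (limma adjusted p = 0.161). Arrays 40 and 71 were the lowest, and array 41 was the only positive one. Its pair of probes had the same sign on every array but 42, where they read -0.37 and 0.15, with means of -0.66 and -0.49. Turning set 2 gave a mean of 0.29 ± 0.79 (limma adjusted p = 0.404).

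Gria1 and Gria4 lay near 0, at -0.06 ± 0.20 and -0.01 ± 0.12, and Gria4 at 0.08 ± 0.09 in the turned reading (limma adjusted p = 0.211). Gria1 ran from 0.04 to 0.16 on set 1 and from -0.33 to -0.05 on set 2, and was called at 0.16 ± 0.12 when set 2 was turned (limma adjusted p = 0.0394). This rests on the average of a pair of probes that ran against each other. One read negative on set 1 and positive on 3 arrays of set 2, and the other read positive on set 1 and negative on set 2.

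The auxiliary subunit Neto2, a transmembrane protein that binds kainate receptors and slows their desensitisation, was negative on 8 of 8 arrays. It read -0.12, -0.77, -0.38, -0.52, -0.25, -0.81, -0.33 and -0.88, with a mean of -0.51 ± 0.28 (1.42-fold, SE 0.10, limma adjusted p = 0.0263). Set 2 was lower than set 1 without overlap, at -0.75 ± 0.16 against -0.27 ± 0.11 (SD, n = 4 arrays each). The mean with set 2 turned was 0.24 ± 0.56 (limma adjusted p = 0.332). The averages of neighbouring array numbers lay close together, at -0.45, -0.45, -0.53 and -0.60.

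The 3 probes of Neto2 did not agree. Both probes annotated to its RefSeq transcript were called as single probes, at -0.87 ± 0.29 and -0.73 ± 0.44 (limma over all probes, adjusted p = 0.00751 and 0.0329), and each was negative on 8 of 8 arrays. The third, annotated to another GenBank record, had a mean of 0.08 ± 0.39. Leaving out 1 array ended the call of the gene in 6 of 8 fits. The call held without array 39 and without array 43, and the adjusted p reached 0.0757.

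Neto1, which binds kainate and NMDA receptors, also lay higher on set 1 than on set 2, but on opposite sides of 0. It read 0.45, -0.63, 0.17, -0.90, 0.63, -0.43, 0.31 and -0.68, positive on every array of set 1 and negative on every array of set 2, as were 9.45% of all genes tested. Its mean of -0.13 ± 0.59 was not called (limma adjusted p = 0.888), and with set 2 turned it was called at 0.52 ± 0.23 (1.44-fold, limma adjusted p = 0.00153). Cnih2, a cornichon protein that slows AMPA channel closing, had a mean of -0.03 ± 0.27, and of -0.02 ± 0.27 in the turned reading.

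Promoters are shown for genes that kept 1 sign on every array in the deposited direction, of which Neto2 alone was called among the 3 below. Of the 5 genes that were called or kept 1 sign (Neto2, Gria3, Grm4, Grik3 and Dlg1), 3 had an entry in the RefSeq promoter table of build GRCr8, which covers 250 bases before and 50 after the start of a gene. Capitals mark matches, on either strand, to the GC box GGGCGG, the cyclic AMP response element TGACGTCA, the E-box CACGTG or the TATA box letters TATAAA.
Neto2, chr19:37517305-37517604 of GRCr8, plus strand: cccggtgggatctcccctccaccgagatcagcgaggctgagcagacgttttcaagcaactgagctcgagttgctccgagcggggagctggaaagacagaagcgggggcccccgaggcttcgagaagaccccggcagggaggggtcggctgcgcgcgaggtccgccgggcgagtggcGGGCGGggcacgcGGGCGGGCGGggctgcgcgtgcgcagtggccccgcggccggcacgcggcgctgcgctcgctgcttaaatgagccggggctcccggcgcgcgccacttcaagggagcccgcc
Grik3, chr5:143052192-143052491 of GRCr8, plus strand: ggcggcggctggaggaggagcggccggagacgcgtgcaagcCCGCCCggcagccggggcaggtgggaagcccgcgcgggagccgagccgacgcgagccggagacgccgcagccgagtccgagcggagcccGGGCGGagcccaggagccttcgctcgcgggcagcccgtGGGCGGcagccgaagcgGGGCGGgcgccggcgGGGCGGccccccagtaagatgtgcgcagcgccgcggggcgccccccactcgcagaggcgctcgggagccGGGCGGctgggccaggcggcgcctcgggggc
Dlg1, chr11:82607748-82608047 of GRCr8, minus strand: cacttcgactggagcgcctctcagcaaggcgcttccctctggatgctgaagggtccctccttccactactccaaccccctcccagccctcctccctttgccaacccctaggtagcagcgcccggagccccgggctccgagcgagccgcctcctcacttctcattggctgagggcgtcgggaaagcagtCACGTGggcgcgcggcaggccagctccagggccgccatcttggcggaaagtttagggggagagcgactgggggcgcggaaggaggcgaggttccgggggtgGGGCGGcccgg
All 3 windows were rich in CpG, with 41 such steps for Neto2, 49 for Grik3 and 24 for Dlg1, against a median of 7 over 33469 promoters. Neto2 held 3 GC boxes, of which 2 overlap, Grik3 held 6, and Dlg1 held 1 together with an E-box. GGGCGG was found in 33.1% of all promoters and CACGTG in 6.42%. The other letters were in none of the 3 windows, against 1.83% (TGACGTCA) and 14.2% (TATAAA) of all promoters.

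Among kainate receptor subunits 0 of 5 were called in the deposited direction. Grik3, a low-affinity subunit, was positive on 8 of 8 arrays, as were 1.55% of all genes tested. It read 0.09, 0.31, 0.17, 0.25, 0.06, 0.04, 0.33 and 0.27, with a mean of 0.19 ± 0.11 (limma adjusted p = 0.169), and -0.03 ± 0.23 with set 2 turned (limma adjusted p = 0.835). Grik1, the subunit known from OFF bipolar cells, had a mean of 0.05 ± 0.19 and followed the neighbouring arrays, at -0.24 on average for arrays 39 and 40 and 0.24 for arrays 41 and 42. Grik5 had a mean of -0.06 ± 0.34. In the turned reading Grik1 lay at -0.02 ± 0.19 and Grik5 at -0.17 ± 0.29, and neither was called.

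Grik2 and the high-affinity subunit Grik4 were split by the sets, in opposite directions. Grik2 lay from -0.58 to -0.39 on set 1 and from 0.09 to 0.43 on set 2, and with set 2 turned it was called at -0.36 ± 0.17 (limma adjusted p = 0.00302). Grik4 lay from 0.06 to 0.32 on set 1 and from -0.40 to -0.23 on set 2, and was called at 0.25 ± 0.11 (limma adjusted p = 0.00482). Their deposited-direction means were -0.11 ± 0.41 and -0.06 ± 0.28.

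The NMDA receptor subunits had 0 of 7 called members in the deposited direction. Grin2c had the largest mean in size. It read 0.02, -0.15, -1.14, -1.12, -0.40, -0.31, -0.51 and -0.30, with a mean of -0.49 ± 0.43 (limma adjusted p = 0.108). Arrays 41 and 42 stood far below the others, and within each neighbouring pair the values differed by at most 0.21. With set 2 turned its mean was -0.02 ± 0.67 (limma adjusted p = 0.958).

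Grin1, the subunit that every NMDA receptor contains, had a mean of -0.29 ± 0.51 (limma adjusted p = 0.53). It lay from -0.94 to -0.54 on set 1 and from -0.10 to 0.36 on set 2, and was called with set 2 turned at -0.44 ± 0.37 (1.36-fold, limma adjusted p = 0.0202). Both of its probes, with means of -0.57 and -0.0013, were lower on set 1 than on set 2 without overlap.

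Grin2d was split most evenly, from -0.44 to -0.22 on set 1 and from 0.39 to 0.53 on set 2. Its deposited-direction mean was 0.07 ± 0.42, and with set 2 turned it was -0.39 ± 0.10 (limma adjusted p = 0.000725), the lowest adjusted p of the list in that direction. Grin2a and Grin2b, the common glutamate-binding subunits of the forebrain, had means of -0.01 ± 0.24 and 0.02 ± 0.20. Grin3a and Grin3b, which bind glycine, had means of -0.09 ± 0.52 and 0.05 ± 0.18. Grin3a ran from -0.80 on array 71 to 0.71 on array 39. None of these 4 was called in the turned reading, where Grin2a lay at 0.02 ± 0.24, Grin2b at -0.12 ± 0.15, Grin3a at 0.23 ± 0.47 and Grin3b at -0.05 ± 0.18.

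Of 6 metabotropic receptors and the delta receptor Grid1, 0 were called in the deposited direction. Grm4, a receptor that lowers transmitter release, was negative on 8 of 8 arrays, as were 2.89% of all genes tested. It read -0.08, -0.62, -0.34, -0.91, -0.00038, -0.22, -0.22 and -0.16, so that array 43 was close to 0 and arrays 40 and 42 were lowest. Its mean was -0.32 ± 0.30 (limma adjusted p = 0.175), and 0.16 ± 0.42 with set 2 turned (limma adjusted p = 0.404). Grm5, which couples to phospholipase C, had a mean of 0.14 ± 0.22, and of -0.11 ± 0.24 in the turned reading.

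The 4 remaining metabotropic receptors and Grid1 shared 1 layout. Grm2 and Grm3, which lower cyclic AMP, Grm7 and Grm8, which sit at release sites, and Grid1, which links to cerebellins, were negative on every array of set 1 and positive on every array of set 2. This layout was found in 7 of the 43 members and in 10.5% of all genes tested. Grid1 read -0.41, 0.26, -0.55, 0.19, -0.20, 0.38, -0.30 and 0.45, with a mean of -0.02 ± 0.39 (limma adjusted p = 0.979). Their deposited-direction means lay between -0.11 (Grm7) and 0.03 (Grm2). With set 2 turned, where 14.5% of all genes were called negative, all 5 were called by limma, at -0.39 ± 0.18 for Grm7, -0.34 ± 0.13 for Grid1, -0.33 ± 0.10 for Grm2, -0.33 ± 0.13 for Grm3 and -0.25 ± 0.11 for Grm8, with adjusted p from 0.00135 to 0.00532. For Grm8 only 1 of 2 probes carried this layout, and the other had a mean of -0.10 ± 0.11. The Grm7 probes, with means of -0.33 and 0.11, each missed it on 1 array, at -0.0037 on array 42 and 0.02 on array 41.

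None of the 17 scaffold genes was called in the deposited direction, with limma adjusted p from 0.142 upward, and 1 of them, Dlg1, had an unadjusted p under 0.05. The DLG proteins tie receptors to the cytoskeleton and to signalling enzymes. Dlg1 read 0.05, 0.29, 0.39, 0.37, 0.06, 0.26, 0.10 and 0.19, positive on 8 of 8 arrays, with a mean of 0.21 ± 0.13 (1.16-fold, limma adjusted p = 0.142). It was called with set of arrays as a covariate (limma adjusted p = 0.0433, against 1.91% of all genes called on the positive side of that fit). That fit is no independent test, since the sets were found in these data. The mean of Dlg1 was -0.06 ± 0.26 with set 2 turned (limma adjusted p = 0.609). Of its pair of probes, that of the RefSeq transcript had a mean of 0.36 ± 0.28 and the other 0.07 ± 0.13.

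Dlg2 followed the neighbouring arrays. It was lowest on arrays 39 and 40, at -0.26 and -0.36, highest on 41 and 42, at 0.59 and 0.74, and between 0.08 and 0.32 on the rest, with a mean of 0.19 ± 0.38. Dlg4, the main scaffold of excitatory synapses, had a mean of 0.16 ± 0.30 and lay higher on set 1 (from 0.26 to 0.63) than on set 2 (from -0.24 to 0.20), with a turned mean of 0.24 ± 0.24 (limma adjusted p = 0.0509). Only 1 of its 2 probes, with a mean of 0.34, separated the sets, while the other overlapped between them and had a mean of -0.01. Dlg3 had a mean of -0.10 ± 0.28. The turned means of Dlg2 and Dlg3 were 0.01 ± 0.43 and 0.18 ± 0.23, neither of them called.

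Homer1, which links metabotropic receptors and SHANK to calcium stores, repeated the course of Dlg2. It read -0.01, -0.42, 0.64, 0.79, 0.21, 0.15, 0.10 and -0.05, with a mean of 0.17 ± 0.39 (limma adjusted p = 0.679), and arrays 41 and 42 stood out on the positive side. Both of its probes showed this. Homer2 was positive on every array of set 1 and negative on every array of set 2, as were 9.45% of all genes tested. It was called with set 2 turned at 0.22 ± 0.14 (limma adjusted p = 0.0177), against a deposited-direction mean of 0.06 ± 0.27. Homer3 had a mean of 0.10 ± 0.30. The turned means of Homer1 and Homer3 were 0.06 ± 0.42 and -0.17 ± 0.26, neither of them called.

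The SHANK proteins, the deepest layer of the scaffold, had means of -0.10 ± 0.31 (Shank1), 0.03 ± 0.42 (Shank2) and -0.11 ± 0.25 (Shank3). Shank3 read -0.07, 0.33, -0.45, -0.02, -0.27, 0.09, -0.32 and -0.16, negative on 6 of 8 arrays (limma adjusted p = 0.739, and 0.109 at -0.17 ± 0.21 with set 2 turned). Shank1 was lower on set 1, from -0.68 to -0.09, than on set 2, from -0.08 to 0.36 (turned mean -0.22 ± 0.23, limma adjusted p = 0.0636). The pair of Shank2 probes, annotated to different RefSeq transcripts, read 0.49 and 0.76 on array 39 but 0.39 and -1.03 on array 41, so their average describes neither. The turned mean of Shank2 was 0.08 ± 0.41.

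Grip1, Grip2 and Pick1, PDZ proteins that bind the tails of AMPA receptors, were not called in either direction. Grip1 read -0.50, -0.16, -0.10, 0.23, -0.10, 0.04, -0.25 and -0.02, with a mean of -0.11 ± 0.22 (limma adjusted p = 0.702). Grip2, from -0.10 to 0.16, had the lowest SD of the 43 genes (0.09). Pick1 ran from -0.82 on array 39 to 0.58 on array 42, with a mean of 0.07 ± 0.45. Turned means were -0.13 ± 0.20 for Grip1, 0.00 ± 0.09 for Grip2 and -0.17 ± 0.42 for Pick1.

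The SAPAP genes, whose proteins join DLG to SHANK, lay close to 0. Dlgap1 read 0.16, 0.17, -0.02, 0.14, -0.03, -0.08, -0.03 and 0.05, with a mean of 0.04 ± 0.10 (limma adjusted p = 0.888). Dlgap2, Dlgap3 and Dlgap4 had means of 0.04 ± 0.17, 0.03 ± 0.35 and -0.0019 ± 0.15. None was called with set 2 turned, with means of -0.03 ± 0.11, 0.07 ± 0.16, -0.19 ± 0.28 and -0.07 ± 0.13 for Dlgap1, Dlgap2, Dlgap3 and Dlgap4. The 95% interval of the Dlgap1 mean ran from -0.09 to 0.17.

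Across the list, the sets of arrays separated 15 of the 43 genes without overlap. Set 1 was below set 2 in 9 genes, of which 8 were receptor subunits and the other was Shank1, and above it in 6 (Gria1, Grik4, Neto1, Neto2, Dlg4 and Homer2). Of all genes tested, 18.1% lay below and 16.8% above in this way. The 2 set means had the same sign in 13 of 43 members and in 34.7% of all genes. No test was made of this split, because the sets were found in the same values.

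**Figure D2:**
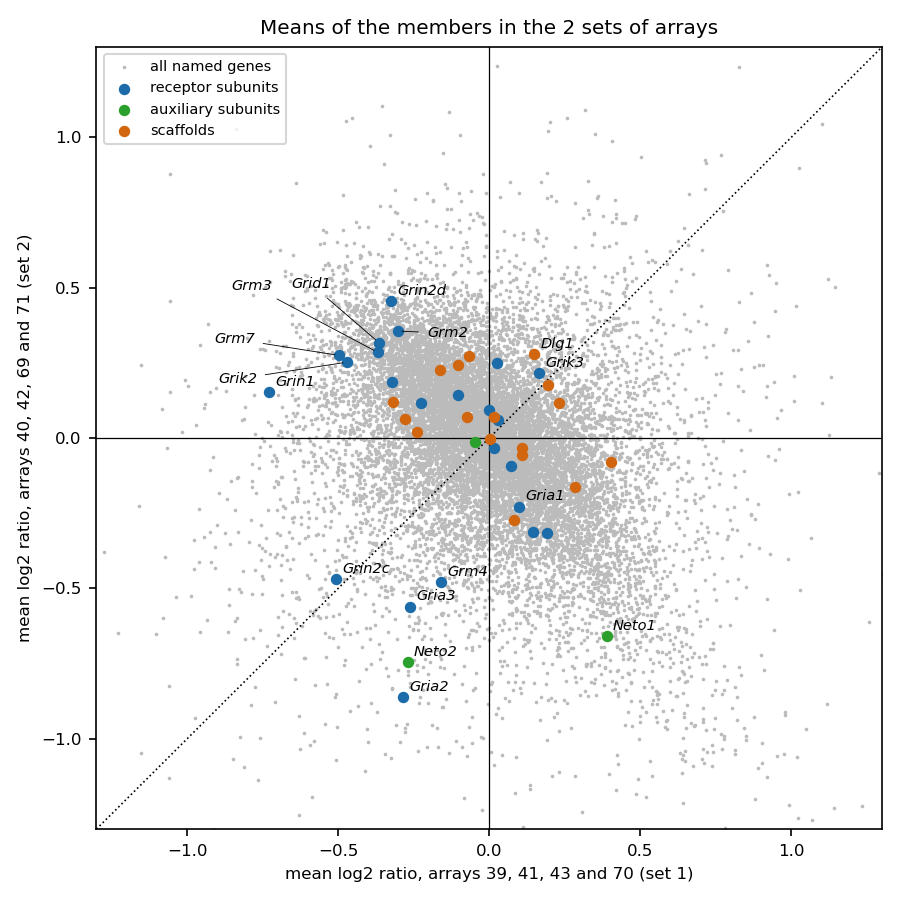
Mean log2 ratio over the 4 arrays of set 1 (horizontal) against the mean over the 4 arrays of set 2 (vertical), for the 43 genes (coloured by role) and all named genes (grey, 49 of them outside the axes at 1.3). Neto2, Gria2, Gria3, Grin2c and Grm4 lie in the lower left quadrant, negative in both sets, while Grin2d, Grin1 and the Grm2, Grm3, Grm7 and Grid1 group lie in the upper left quadrant and Neto1 in the lower right.

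The 8 values of a gene were divided into 4 parts: the mean (1 degree of freedom), the set (1), the neighbouring pair of array numbers (39 with 40, 41 with 42, 43 with 69, 70 with 71; 3) and the rest (3). The labels do not give these pairs, and each happened to hold an array of either set. The mean took the largest part of the sum of squares in 8 of the 43 genes, with 78.5% for Neto2, 76.2% for Grik3, 75.9% for Gria3, 74.3% for Dlg1, 60.1% for Grin2c, 55.9% for Grm4, 52.4% for Gria2 and 30.8% for Grm5. The set took the largest part in 17 genes, up to 94.2% for Grin2d and 92.4% for Grm2. The pair took it in 14, among them Cnih2 (90.9%), Grik1 (90.8%), Grin2a (90.7%), Dlg2 (76.8%) and Homer1 (72.8%). The rest was largest in 4 genes, Grin3b, Grip2, Dlgap2 and Dlgap3. Over 14665 genes with 8 values, the mean was the largest part in 15.7%, the set in 43.0% and the pair in 30.8%.

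**Figure D3:**
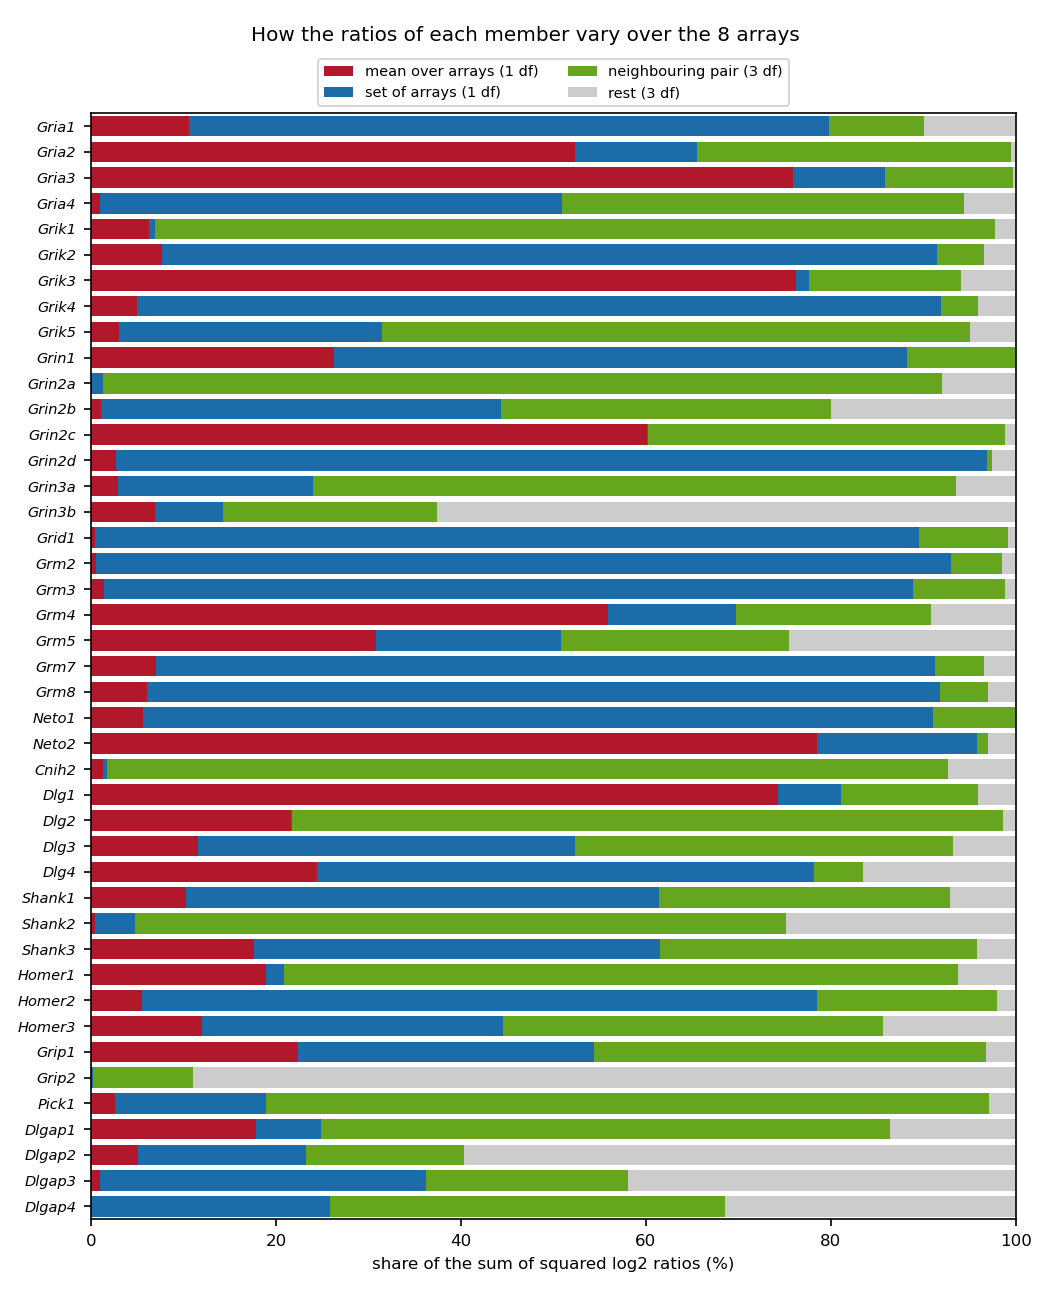
Share of the sum of squared log2 ratios of each of the 43 genes (horizontal bars, %) that lies in the mean over arrays, the set of arrays, the neighbouring pair of array numbers and the rest, with degrees of freedom (df) in the key. Red is widest for Neto2, Grik3, Gria3 and Dlg1, blue for Grin2d and Grm2, and green for Cnih2, Grik1 and Grin2a.

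Courses over the pairs differed between genes. On arrays 39 and 40 the pair averages were -0.97 for Gria2 and 0.56 for Grin3a, against 0.13 and -0.52 on arrays 41 and 42. Grin2a averaged 0.32 on arrays 39 and 40 and -0.28 on arrays 70 and 71. Marker genes of microglia, which are not ganglion cells, had list medians of 0.78 and 0.72 on arrays 39 and 40 and between -0.20 and 0.31 on the other 6. Their part in the pair differences was not tested.

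Probes of 1 gene often disagreed. Of the 16 genes with several probes, 7 had probe means on both sides of 0, and the distance from the lowest to the highest probe mean had a median of 0.19 and reached 0.96 in Neto2. As single probes, 3 of the 63 were called, those of the Neto2 RefSeq transcript and the Gria3 RefSeq probe, at -0.53 ± 0.20 (limma over all probes, adjusted p = 0.015), against 1.75% of all probes. The other Gria3 probes had means of -0.65 ± 0.44 (limma adjusted p = 0.0531) and -0.06 ± 0.27.

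**Figure D4:**
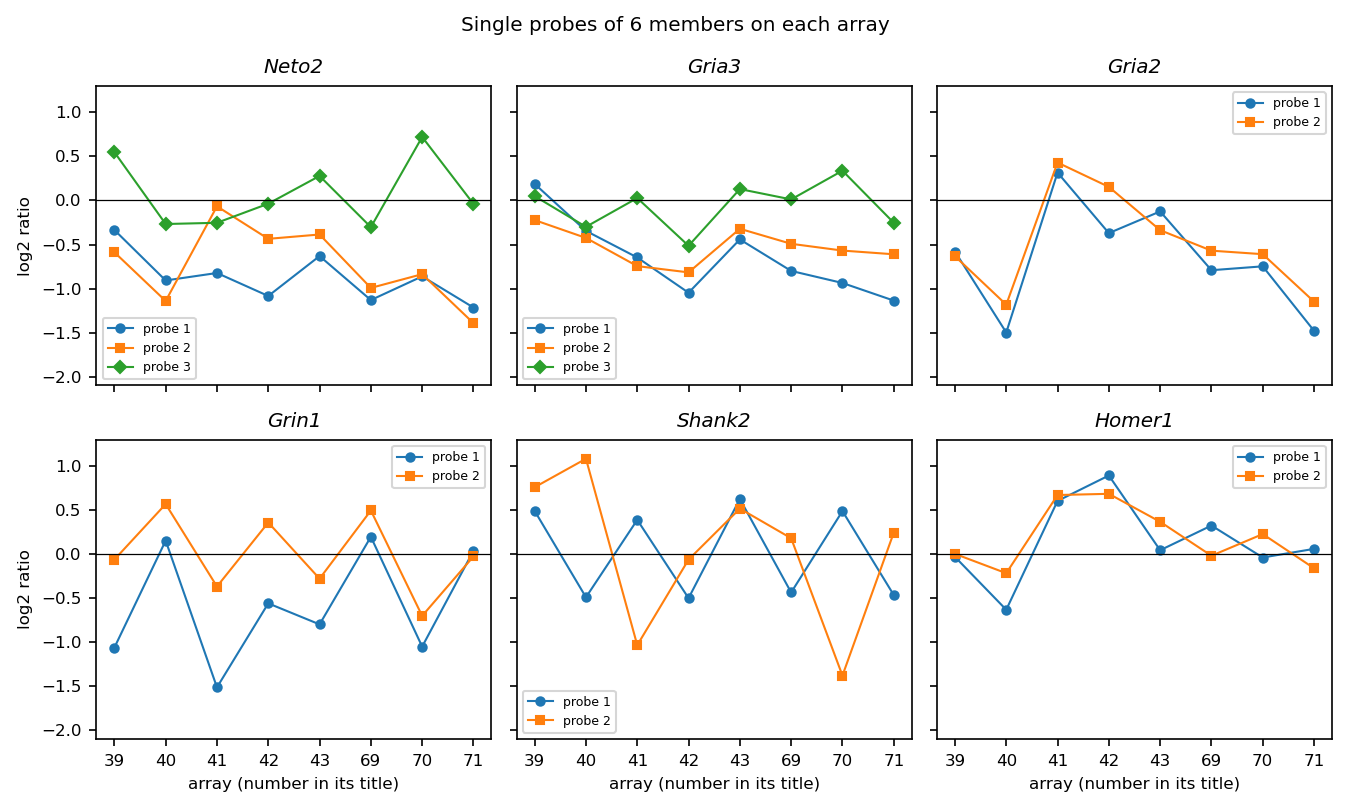
Log2 ratio of single probes (lines, numbered from the lowest to the highest mean) of 6 genes on each of the 8 arrays. The probes of Gria2 and Homer1 follow similar courses, probe 3 of Neto2 and of Gria3 lies above the others on most arrays, and those of Shank2 run apart.

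Other genes of the glutamate synapse were taken from 4 lists that do not overlap with the 43. Of 8 measured TARPs and other AMPA receptor partners, 0 were called in the deposited direction, and with set 2 turned 3 were called negative and 2 positive, where 14.5% and 13.6% of all genes were. Cacng5 had the largest mean in size, 0.34 ± 0.89 (-0.40 turned), which array 40 at 2.51 carried, since the other 7 arrays read from -0.15 to 0.34. Of 16 postsynaptic signalling genes 0 were called, with Nsf, which takes part in AMPA receptor insertion, at 0.47 ± 0.33 (limma adjusted p = 0.062) and 0.12 turned (limma adjusted p = 0.668), and 3 negative and 2 positive with set 2 turned. Of 16 adaptors and adhesion genes 0 were called, with the neuroligin gene Nlgn1 at -0.56 ± 0.43 (limma adjusted p = 0.072) and 0.14 turned (limma adjusted p = 0.679), and 2 negative with set 2 turned. Of 11 genes of glutamate supply and uptake, 1 was called, Slc17a6, which loads glutamate into synaptic vesicles, at -0.64 ± 0.38 (limma adjusted p = 0.0257), negative on 8 of 8 arrays. In the deposited direction 1.62% of all genes tested were called negative and 0.568% positive. With set 2 turned Slc17a6 was at 0.27 (limma adjusted p = 0.4), and 1 gene on each side was called in that list.

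Marker genes of retinal cells lay on different sides in the deposited direction. Of 15 measured ganglion cell markers, 12 had a negative mean and 2 were called (1.62% of all genes were called negative), Slc17a6 and Thy1, on the same side as Neto2 and Gria3, and the median over the list ran from -0.37 to 0.01 over the arrays. All 7 rod and all 6 cone markers measured had a positive mean, with Rp1 at 0.83 ± 0.57 and Gnat2 at 0.54 ± 0.21 called (limma adjusted p = 0.0397 and 0.0105), and their list medians ran from -0.05 to 0.85 and from 0.12 to 0.49. The cone gene Pde6h was at only 0.0046 ± 0.37, and the rod gene Sag, at 0.32 ± 1.07, was positive on set 1 and negative on set 2. Of all genes tested, 52% had a negative mean. Among 8 bipolar cell markers, Otx2 and Trpm1 were called on the positive side, and the bipolar glutamate receptor gene Grm6 lay at 0.11 ± 0.15. However, 3 of the 8 had a negative mean, among them Pcp2 at -0.37 ± 0.30, negative on 8 of 8 arrays, and the median of the 8 means was 0.03. Of 10 Müller glia and astrocyte markers Rlbp1 was called at 0.50 ± 0.31, while 4 of the 10 had a negative mean and the median of the 10 means was 0.02. Of 8 amacrine, 5 horizontal, 10 microglia and 6 vascular markers 0 were called in this direction, where 0.568% of all genes were called positive. Turning set 2 ended all 7 of these marker calls (limma adjusted p from 0.4 to 0.86) and called other markers, against 14.5% negative and 13.6% positive of all genes. Ganglion cell markers then had 3 negative (Pou4f2, Isl1 and Sncg) and 3 positive calls (Pou4f3, Rbpms and Gap43). Rods had 1 positive call (Sag), cones 1 negative (Opn1sw), bipolar cells 2 negative (Prkca and Isl1), and Müller glia and astrocytes 1 negative (Sox9) and 1 positive (Glul). Amacrine and vascular markers each had 1 negative and 2 positive calls, and horizontal and microglia markers had 0. A ratio does not show which of these markers were near background, and their part in the results for the receptors and scaffolds was not tested.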

How the data were processed

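The series was described by 8 arrays of 2 colours, each holding RNA of large and of small ganglion cells. The values are those of the authors' deposited table of 41048 probes, a log2 ratio per probe. How the arrays were scanned, corrected for background and normalized is not given in the sources used here. The base of the logarithm was read from the deposited values, where 67 of 88 distances between common values lay within 0.001 of the log2 of a ratio of whole numbers up to 12, against 18 for log10 and 2 for the natural log. Scale and centring (array medians of 0.03, -0.08, -0.01, 0.03, 0.0016, -0.00099, 0.0081 and 0) follow from the values, and the direction stays unknown.

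Values of a size above 15 and values of exactly 0 were taken as missing. They touched no value of the 43 genes. Probes were named through the platform's probe table (23374 with 1 symbol, 48 with several, 17626 with none), and the symbols of all 43 genes were the same in the RefSeq gene table. A gene was the mean of its probes and needed values on 6 arrays. Depth has no meaning for arrays, and their number limits the precision.

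An intercept model was fitted with limma (version 3.58.1, R 4.3.3; lmFit, eBayes, 2-sided) over all 14801 genes. Per the labels, each biological replicate had 2 technical subreplicates, but not which arrays belong together, so the arrays entered singly and the p-values, which measure only the spread between these arrays, may be too small. The fit was tested on simulated data that kept the set difference and residual spread of each gene. Of 100 genes given a log2 change of 0.5 it recovered 59%, and of 100 given a change of 1 it recovered 91%, with 0 false calls. Beyond the sets the simulated arrays were independent, which leaves out any shared replicate. Plots used matplotlib 3.10.9 under Python 3.11.15.

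The genes and the comparison lists were chosen with earlier results of these data known. Values by array were given for called genes, genes with 1 sign on every array and, in a role group with neither, the gene of the largest mean, and further genes were listed by array after their values were seen (Gria2, Neto1). Alternatives covered extreme values, centring, scaling, probe summary, single probes, missing arrays, robust moderation, the sets, the neighbouring arrays and leaving out arrays.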

Additional observations from a re-analysis of the deposited data

Results flagged for a closer look

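Single arrays stood apart from the other 7 for 2 of the 43 genes by Dixon's test at its 95% level, and chance alone flags about 1 group in 20. Homer3 read 0.76 on array 40, where the next highest value was 0.27. Dlgap4 read -0.36 on array 41, where the next lowest was -0.04. Neither gene was called in either direction.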

How the results depend on the processing

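No paired analysis was possible because there is only 1 group, so that no array has a partner in another group; blocking or averaging arrays with neighbouring numbers, which the labels do not pair, was tried instead. The members called on the negative side stayed at 2 and those on the positive side at 0 with values as deposited, median centring, scaling, the median of probes, single probes counted by gene, 8 values required, robust moderation, neighbouring arrays as a random block (correlation -0.18) with or without the set as a covariate (0.50 with it), and without arrays 39 and 40. With the set as a covariate alone, 1 was called on the positive side and 928 genes in all, against 324. The sets were found in these data, so the covariate takes a difference seen in them out of the spread and that fit is no independent test. With set 2 turned, 8 members were called negative and 4 positive, and 4161 genes (28.1%). The averages of neighbouring arrays gave 0 members and 0 genes, with 9 members and 1928 genes at an unadjusted p under 0.05, and a limma adjusted p of 0.0933 for Neto2 and 0.142 for Gria3. The random block alone gave 523 genes. Its correlation was below 0, which narrows the error of a mean, so that fit was no check on shared replicates. Leaving out 1 array at a time gave from 0 to 2 members on the negative side, 0 on the positive side, from 134 to 330 genes and member medians from -0.03 to 0.0051. The sign of the turned reading is open as a whole and was set here so that array 39 kept its sign. With that choice some genes called in either reading had a turned mean of the other sign. These were 0.24 for Neto2, 0.15 for Gria3, 0.16 for Gria1, 0.25 for Grik4, 0.52 for Neto1, -0.39 for Grin2d and -0.33 for Grm2. This is no reversal within the arrays, since Neto2 was negative in both sets, at -0.27 and -0.75. Genes called in neither reading changed sign too, such as Gria2 from -0.57 to 0.29 and Grm4 from -0.32 to 0.16. The cause was not tested, beyond the turning itself and the smaller number of arrays or averages. Over all alternatives the limma adjusted p ran from 0.00219 to 0.332 for Neto2 and from 0.0109 to 0.488 for Gria3. For both genes the lowest value came from the fit with the set as a covariate alone. Without scanner intensities, signal over background is unknown for every probe.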
